A study of Mus musculus with 4 samples.

Results

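The genes described here encode the machinery that divides the chromosomes in mitosis: the centromere and kinetochore, the spindle checkpoint, the chromosomal passenger complex, the spindle motors, the anaphase-promoting complex, the mitotic entry kinase and condensin. They are a named list of 49 genes out of 21887 protein-coding genes on the autosomes and sex chromosomes, and all 49 matched a gene symbol. Chromatin accessibility was measured by ATAC-seq, in which the Tn5 transposase inserts sequencing adapters into open DNA. Haematopoietic stem cells (HSCs) came from untreated male C57BL/6 mice of wild-type genotype at 8 weeks of age. They were sorted from marrow as LSK cells (Kit-positive and Sca-1-positive cells without lineage markers) that carried Slam1 and lacked CD34, Flt3 and CD48, and the gate was applied after magnetic depletion of lineage-positive cells from pooled femora and tibiae. CD93, a surface receptor, then split the gate into a CD93-positive and a CD93-negative fraction, with 2 libraries each. The labels do not say that the 2 libraries of a fraction came from separate mice, so the spread between them may be technical.

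At the onset of mitosis cyclin B bound to CDK1 drives chromosome condensation and spindle assembly, and the kinetochore built on each centromere catches the spindle fibres. The spindle checkpoint holds back the anaphase-promoting complex, a ubiquitin ligase, until every kinetochore is attached, and the complex then triggers the separation of sister chromatids and the exit from mitosis. Most adult HSCs rest outside the cell cycle. Many mitotic genes are known to carry a cell-cycle homology region (CHR) near the start, an element read by the MuvB proteins that repress these genes in resting cells and activate them in dividing ones, often beside CCAAT boxes bound by NF-Y.

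The 7 promoters below belong to genes of the main contrasts. The ends of Hjurp, Mad2l1, Fzr1 and Anapc4 were open in a CD93-positive library as well as in both CD93-negative libraries. The Fzr1 and Mad2l1 summits lay outside the printed stretch in every library that listed them. Ncapg is a condensin gene open in both CD93-negative libraries only. The promoters of Plk1 and Ccnb2, which were in no list, both hold a CHR. Each runs 5′ to 3′ on the gene's own strand, from 250 bases before the annotated start, and holds 300 bases of RefSeq build GRCm38.p6. The regions are chr1:88277530-88277829 (minus strand) for Hjurp, chr6:66534971-66535270 (plus) for Mad2l1, chr10:81378321-81378620 (minus) for Fzr1, chr5:52833885-52834184 (plus) for Anapc4, chr5:45669675-45669974 (plus) for Ncapg, chr7:122159185-122159484 (plus) for Plk1 and chr9:70421505-70421804 (minus) for Ccnb2. Capitals mark matches, on either strand, to the CHR forms TTTGAA and TTCGAA and to CCAAT.
Hjurp: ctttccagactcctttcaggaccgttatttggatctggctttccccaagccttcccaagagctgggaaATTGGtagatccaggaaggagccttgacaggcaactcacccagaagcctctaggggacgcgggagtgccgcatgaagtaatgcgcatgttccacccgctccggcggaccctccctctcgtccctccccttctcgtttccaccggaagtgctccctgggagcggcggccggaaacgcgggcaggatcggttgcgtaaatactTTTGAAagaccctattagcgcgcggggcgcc
Mad2l1: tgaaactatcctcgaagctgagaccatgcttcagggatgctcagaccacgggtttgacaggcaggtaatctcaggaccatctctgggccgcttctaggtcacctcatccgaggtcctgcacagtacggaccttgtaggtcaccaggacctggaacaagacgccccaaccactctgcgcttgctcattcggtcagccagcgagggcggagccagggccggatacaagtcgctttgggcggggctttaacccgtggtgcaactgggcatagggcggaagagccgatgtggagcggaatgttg
Fzr1: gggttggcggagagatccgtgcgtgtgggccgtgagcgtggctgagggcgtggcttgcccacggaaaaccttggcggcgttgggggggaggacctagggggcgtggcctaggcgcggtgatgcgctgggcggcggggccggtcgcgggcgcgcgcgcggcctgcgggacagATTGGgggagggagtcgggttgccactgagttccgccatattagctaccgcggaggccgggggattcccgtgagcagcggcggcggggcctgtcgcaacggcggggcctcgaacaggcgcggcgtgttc
Anapc4: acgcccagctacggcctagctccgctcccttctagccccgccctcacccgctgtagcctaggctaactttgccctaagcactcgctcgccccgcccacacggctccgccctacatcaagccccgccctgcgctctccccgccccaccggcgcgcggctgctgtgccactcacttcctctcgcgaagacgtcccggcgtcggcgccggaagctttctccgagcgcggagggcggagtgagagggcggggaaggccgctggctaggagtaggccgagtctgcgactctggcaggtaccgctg
Ncapg: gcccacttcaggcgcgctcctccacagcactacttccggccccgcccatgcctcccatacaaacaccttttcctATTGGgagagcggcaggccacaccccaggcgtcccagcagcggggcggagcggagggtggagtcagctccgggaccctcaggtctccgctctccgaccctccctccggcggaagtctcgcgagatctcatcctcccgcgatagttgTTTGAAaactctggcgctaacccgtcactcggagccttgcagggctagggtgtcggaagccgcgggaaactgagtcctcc
Plk1: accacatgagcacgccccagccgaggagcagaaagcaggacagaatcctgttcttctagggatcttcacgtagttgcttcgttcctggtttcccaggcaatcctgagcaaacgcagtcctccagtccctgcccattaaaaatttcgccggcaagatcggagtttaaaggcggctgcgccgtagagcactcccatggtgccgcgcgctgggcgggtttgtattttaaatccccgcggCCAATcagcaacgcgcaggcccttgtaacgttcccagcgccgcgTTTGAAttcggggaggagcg
Ccnb2: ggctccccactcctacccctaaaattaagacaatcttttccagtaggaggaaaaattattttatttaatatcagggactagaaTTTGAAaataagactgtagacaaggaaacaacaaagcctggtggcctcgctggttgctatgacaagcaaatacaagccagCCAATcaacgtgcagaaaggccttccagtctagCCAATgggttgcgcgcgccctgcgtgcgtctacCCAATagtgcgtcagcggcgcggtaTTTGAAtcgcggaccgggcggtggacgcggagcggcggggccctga

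Hjurp and Plk1 hold their CHR just after the annotated start, with its first base 19 and 30 bases downstream. Ccnb2 holds one 4 bases downstream and another at position -167, together with 3 CCAAT boxes. Ncapg holds its CHR 30 bases upstream. Fzr1 has a single CCAAT match, 79 bases upstream, and Mad2l1 and Anapc4 have neither element in the window. A match is a run of letters and does not show that a protein binds there.

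The deposited data are lists of peak summits, the single base at which each called peak of open chromatin is highest, with a score for each summit. The authors' score is taken as the −log10 of the peak's p value or q value against that library's own background, and is not scaled between libraries. A gene was counted as listed in a library when a summit lay within 1000 bp of either annotated end of the gene, and its highest-scoring such summit gave the gene its score. The lists held 21 and 711 summits in CD93-positive replicates 1 and 2, and 7989 and 2755 summits in CD93-negative replicates 1 and 2. Read depth is unknown, and depth, library quality and the sorted fraction cannot be told apart as sources of list length. Of 14 HSC and gate markers, none was listed in either CD93-positive library or in CD93-negative replicate 2, and CD93-negative replicate 1 listed only Tal1, Lyl1 and Flt3. Kit, Procr and Cd93 itself were in no list. Of 8 myeloid markers, CD93-negative replicate 1 listed 4 (S100a8, S100a9, Ngp and Camp) and CD93-negative replicate 2 listed 1 (S100a8, 12.5%), against 0 in both CD93-positive libraries. The myeloid markers Mpo, Elane, Ctsg and Prtn3 were in no list. Of all protein-coding genes, 32.2% and 12.9% were listed in CD93-negative replicates 1 and 2, and 0.0183% and 3.22% in CD93-positive replicates 1 and 2. Lymphoid, erythroid, megakaryocyte, endothelial and stromal markers were at 0 in every list. The part of these markers' cells in the results was not tested.

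Few mitotic genes were listed at an end in CD93-positive HSCs and more were in CD93-negative HSCs, and the counts ran in the order of list length. CD93-positive replicate 1 listed 0 of 49 mitotic genes (exact Clopper-Pearson 95% interval 0% to 7.25%), where 0.0183% of all protein-coding genes were listed. CD93-positive replicate 2 listed 4 of 49, or 8.16% (2.27% to 19.6%), where 3.22% of all genes were listed. CD93-negative replicate 1 listed 40 of 49, or 81.6% (68.0% to 91.2%), where 32.2% of all genes were listed. CD93-negative replicate 2 listed 22 of 49, or 44.9% (30.7% to 59.8%), where 12.9% of all genes were listed. Both CD93-positive shares lay below both CD93-negative shares. The group means were 4.08% ± 5.77 in CD93-positive HSCs and 63.3% ± 26 in CD93-negative HSCs (SD, n = 2 libraries each), a difference of -59.2 percentage points. No test is given, since 2 libraries against 2 cannot reach an exact two-sided permutation p below 0.333.

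Beside the 21838 other protein-coding genes, mitotic genes were listed more often in each of the 3 longer lists. The share of mitotic genes was 2.55 times that of the others in CD93-positive replicate 2, 2.55 times in CD93-negative replicate 1 and 3.49 times in CD93-negative replicate 2. These ratios describe the lists and carry no test. The ratio in CD93-positive replicate 2 rests on 4 listed genes. The interval of that share, 2.27% to 19.6%, takes in the 3.21% of other genes.

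The distance between the fractions shrank when lists of one length were compared. With each CD93-negative list reduced to its 711 highest-scoring summits, as many as CD93-positive replicate 2 held in all, the counts were 4 of 49 in CD93-positive replicate 2, 5 of 49 in CD93-negative replicate 1 (10.2%, 3.40% to 22.2%) and 7 of 49 in CD93-negative replicate 2 (14.3%, 5.94% to 27.2%). Among all genes the CD93-negative shares at that length were 3.28% in replicate 1 and 3.38% in replicate 2. The difference in shares over these 3 lists was -4.08 points, and it was not tested. The intervals cover counting over the same 49 genes in single libraries and do not compare the fractions. CD93-positive replicate 1, with 21 summits, could not be matched in length. Hjurp and Fzr1 were in all 3 lists of 711, Mad2l1 and Anapc4 each in one of the CD93-negative ones. The CD93-negative lists added Prc1 and Anapc11 in replicate 1, and Ttk, Anapc13, Smc4 and Mki67 in replicate 2. At 2755 summits, the length of the CD93-negative replicate 2 list, CD93-negative replicate 1 listed 20 mitotic genes (40.8%, 27.0% to 55.8%), where 12.9% of all genes were listed, close to the 22 of replicate 2.

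**Figure D1:**
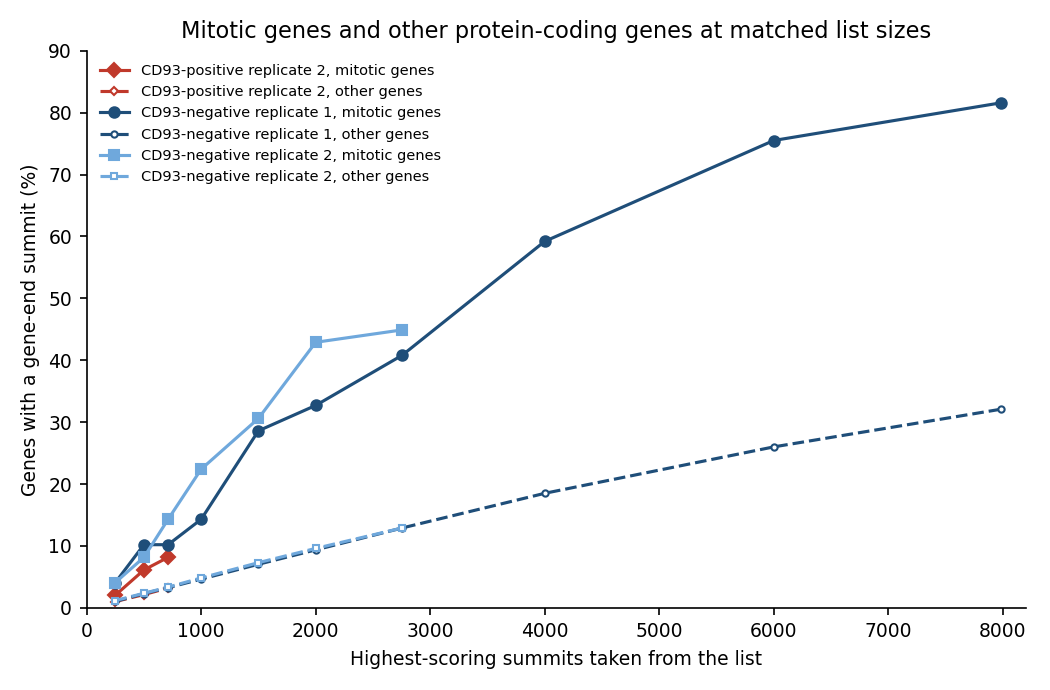
Share of genes with a gene-end summit (%) against the number of highest-scoring summits taken from a list, for mitotic genes (solid lines, filled points, n = 49) and other protein-coding genes (dashed lines, open points, n = 21838) in CD93-positive replicate 2 and both CD93-negative libraries. At 711 summits the mitotic shares are 8.16% in CD93-positive replicate 2, against 10.2% and 14.3% in CD93-negative replicates 1 and 2, and the other genes lie between 3.21% and 3.35%; CD93-positive replicate 1, with 21 summits and no mitotic gene, is not drawn.

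The lists were largely nested, for mitotic genes and for all genes alike. The 4 mitotic genes in CD93-positive replicate 2 were all in both CD93-negative lists, as were 608 (86.4%) of all 704 genes in that list. Over all protein-coding genes, 2.78% were in these 3 lists together. A further 18 genes (36.7%) were in both CD93-negative lists and in neither CD93-positive list, a pattern shown by 9.95% of all genes. Another 18 were in CD93-negative replicate 1 alone, where 19.0% of all genes were, and 9 were in no list, against 67.6% of all genes. Every mitotic gene of a shorter list was also in the list of CD93-negative replicate 1, as were 99.6% of all genes in CD93-positive replicate 2 and 98.5% of all genes in CD93-negative replicate 2.

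Centromere and kinetochore genes were all open in the longest list and mostly missing from the others. Of 8 genes, 1 was listed in CD93-positive replicate 2, 8 in CD93-negative replicate 1 and 2 in CD93-negative replicate 2. Of all genes, 3.22%, 32.2% and 12.9% were in these lists, which is the background for each class below too. Hjurp, the chaperone that deposits the centromeric histone CENP-A, scored 15.2 in CD93-positive replicate 2, against 80.9 and 31.0 in CD93-negative replicates 1 and 2. Ranked within each list, its summit was 41st of 587 gene-end summits in CD93-positive replicate 2, 144th of 6039 in CD93-negative replicate 1 and 2nd of 2288 in CD93-negative replicate 2. Hjurp thus stood near the top of all 3 lists. Ndc80, the microtubule-binding subunit of the outer kinetochore, was unlisted in CD93-positive HSCs and scored 31.9 and 8.36 in CD93-negative replicates 1 and 2. The other subunits of its complex, Nuf2 (32.4), Spc24 (22.9) and Spc25 (17.5), were in CD93-negative replicate 1 alone. So were the CENP-A gene Cenpa (22), the kinetochore motor Cenpe (16.1) and Cenpf (49.9), a large coiled-coil kinetochore protein. Cenpf was at the 86.6th percentile of that list's gene-end summits, and the nearest summit of CD93-negative replicate 2 lay 1240454 bp away.

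Spindle checkpoint genes were divided between listed and unlisted. Mad2l1, the MAD2 protein that blocks the anaphase activator CDC20, scored 5.08 in CD93-positive replicate 2, against 46.0 and 13.4 in CD93-negative replicates 1 and 2. Its summit was 500th of 587 gene-end summits in CD93-positive replicate 2, 1005th of 6039 in CD93-negative replicate 1 and 589th of 2288 in CD93-negative replicate 2. Within each list this was the 15th percentile in CD93-positive replicate 2, against the 83.4th and 74.3rd in CD93-negative replicates 1 and 2. Each list was ranked on its own and the lists differ in length. A change between the fractions was not tested. Ttk, the MPS1 kinase that starts checkpoint signalling, was unlisted in CD93-positive HSCs and scored 19.7 and 13.7 in CD93-negative replicates 1 and 2. Bub3, which brings the BUB kinases to the kinetochore, had a score of 9.44 in CD93-negative replicate 1 only. Bub1 and Bub1b, which encode its BUB1 kinase and BUBR1 partners, were in no list, and their nearest CD93-negative summits lay between 43325 and 293983 bp from a gene end.

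The chromosomal passenger complex corrects faulty spindle attachments and steers cytokinesis. None of its 4 genes was listed in CD93-positive HSCs. Incenp, the scaffold, scored 23.1 and 8.01 in CD93-negative replicates 1 and 2. Birc5 (survivin, 26.2) and Cdca8 (borealin, 23.7), the targeting subunits, were in CD93-negative replicate 1 alone. Aurkb, the kinase of the complex, was in no list, its nearest summit lying 5299 bp away in CD93-negative replicate 1.

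Of 8 spindle and cytokinesis genes, none was listed in CD93-positive HSCs, while 7 were in CD93-negative replicate 1 and 4 in CD93-negative replicate 2. Aurka, the centrosomal Aurora kinase, scored 43.2 and 13.2 in CD93-negative replicates 1 and 2. Kif11, the motor that pushes spindle poles apart, scored 43.8 and 8.56 there. Prc1, which bundles the microtubules of the central spindle, scored 70.8 and 8.27, and was 252nd of 6039 gene-end summits in replicate 1 and 1495th of 2288 in replicate 2. Prc1 thus ranked higher in CD93-negative replicate 1, although that list is the longer. The same held for Kif11, at 1116th against 1439th, and for Fzr1, Anapc4, Anapc11 and Ncapg of other classes. The other mitotic genes in both CD93-negative lists ranked higher in replicate 2. Kif20a, a cytokinesis motor, scored 13.0 and 11.3 in the same libraries. The cytokinesis motor Kif23 (22.7), the microtubule depolymerase Kif2c (9.12) and Tpx2 (20.5), the activator of Aurora A, were in CD93-negative replicate 1 alone. Plk1, the Polo kinase, was in no list, with its nearest summit 26505 bp away in CD93-negative replicate 1.

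The anaphase-promoting complex and its activators gave 2 of the 4 mitotic genes listed in CD93-positive HSCs. Of 12 genes, 2 were listed in CD93-positive replicate 2, 8 in CD93-negative replicate 1 and 6 in CD93-negative replicate 2. Fzr1, the CDH1 activator that keeps the complex active after mitosis and in resting cells, scored 8.65 in CD93-positive replicate 2, against 136 and 23.5 in CD93-negative replicates 1 and 2. Its rank was 249th of 587 gene-end summits in CD93-positive replicate 2, 2nd of 6039 in CD93-negative replicate 1 and 59th of 2288 in CD93-negative replicate 2. Fzr1 therefore stood near the top of the CD93-negative lists and near the middle of the CD93-positive one, each list being ranked on its own. Anapc4, a scaffold subunit, scored 8.20 in CD93-positive replicate 2, against 65.1 and 11.2 in CD93-negative replicates 1 and 2.

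Anapc11, the RING subunit that carries the ligase activity, scored 67.4 and 12.4 in CD93-negative replicates 1 and 2. Anapc10, which helps bind substrates, scored 50.6 and 12.6 there, and the small subunit gene Anapc13 scored 42.0 and 14.3. Cdc27, a subunit to which the activators dock, scored 41.7 and 12.3. None of these 4 was listed in CD93-positive HSCs. Anapc2, the cullin subunit (38.2), and Cdc20, the mitotic activator (20.7), were in CD93-negative replicate 1 alone. Among listed genes of this class the median percentile in CD93-negative replicate 1 was 83.4, the highest of the 7 classes, while in CD93-negative replicate 2 it was 68.6, below the 75.0 of the 2 checkpoint genes there. The other subunit genes, Cdc16, Cdc23, Anapc1 and Anapc5, were in no list.

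Mitotic entry genes were open in the longest list alone. Ccnb1 (cyclin B1) scored 43.7 in CD93-negative replicate 1, and its kinase partner Cdk1 scored 19.2. The CDK1-activating phosphatase genes Cdc25c and Cdc25b scored 44.0 and 7.36 there. None of the 5 genes was listed in either CD93-positive library or in CD93-negative replicate 2, and Ccnb2 (cyclin B2) was in no list. Over all genes, only 12.9% were listed in CD93-negative replicate 2 and 3.22% in CD93-positive replicate 2.

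All 7 condensin and chromosome structure genes were listed in both CD93-negative libraries and none in either CD93-positive library. Of all protein-coding genes, 9.95% showed this pattern. Condensin and chromosome structure was the only class complete in both CD93-negative lists. Condensin is the ring complex that compacts mitotic chromosomes. Its ATPase subunits Smc2 and Smc4 scored 12.3 and 22.1 in CD93-negative replicate 1, and 8.46 and 17.2 in CD93-negative replicate 2. The regulatory subunit Ncapd2 scored 29.4 and 9.81 in CD93-negative replicates 1 and 2, Ncapg scored 40.8 and 8.24, and the kleisin Ncaph, which closes the ring, scored 19.1 and 6.55. Top2a, the topoisomerase that untangles sister chromatids, scored 28.8 and 9.45. Mki67, the Ki-67 protein that coats mitotic chromosomes, scored 26.9 and 18 in the same libraries.

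Condensin scores were moderate, and list length bore on this class too. The median percentile of the 7 genes was 58.0 in CD93-negative replicate 1 and 45.1 in CD93-negative replicate 2. At 711 summits per list, 0 of 7 were listed in CD93-positive replicate 2, 0 in CD93-negative replicate 1 and 2 (Smc4 and Mki67) in CD93-negative replicate 2. At 2755 summits CD93-negative replicate 1 listed 3 of 7 (Ncapd2, Ncapg and Top2a), against the 7 of replicate 2. Centromere and kinetochore genes ran the other way at that length, with 4 of 8 in replicate 1 and 2 of 8 in replicate 2. These are counts of few genes without a test.

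**Figure D2:**
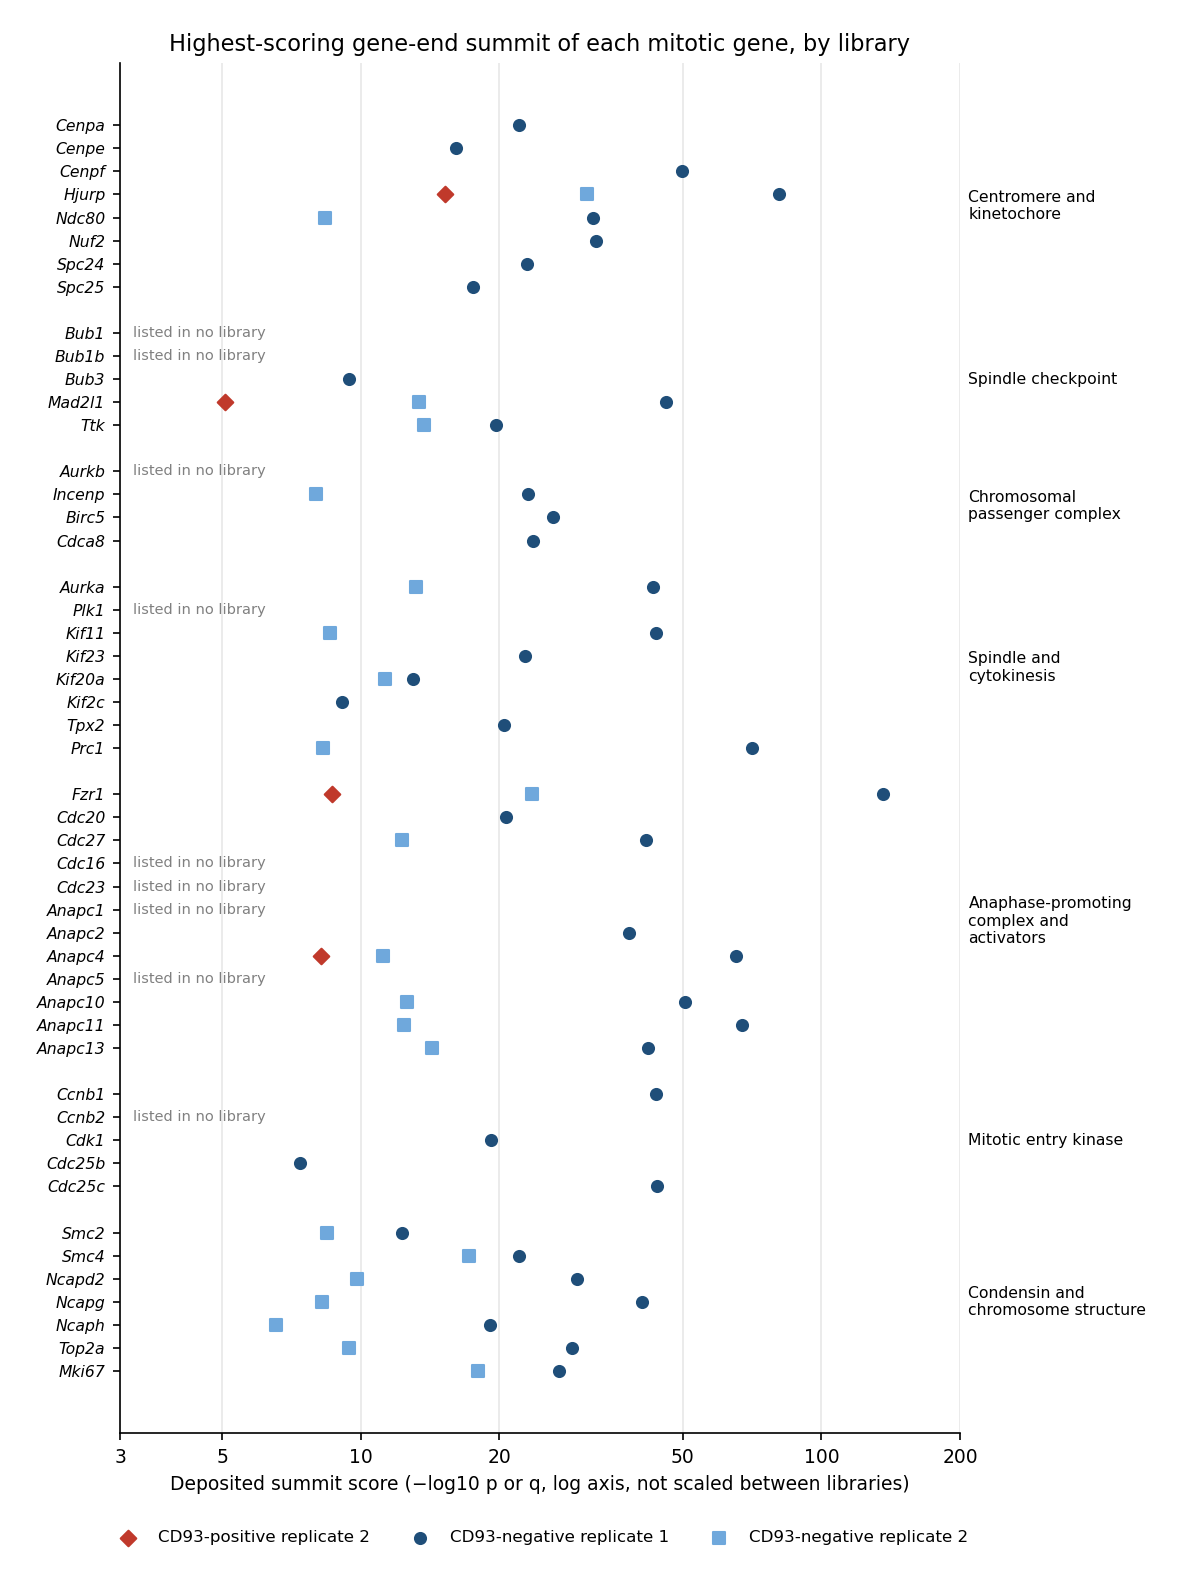
Score of the highest-scoring gene-end summit of each of the 49 mitotic genes (log axis, deposited −log10 scale, not scaled between libraries) in CD93-positive replicate 2 and both CD93-negative libraries, grouped by class. Fzr1 at 136 and Hjurp at 80.9 in CD93-negative replicate 1 stand at the right, and 9 genes have no point.

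Within the lists, the mitotic genes that were called tended to have scores above the middle. The 4 genes in CD93-positive replicate 2 scored 5.08 to 15.2 with a median percentile of 54.9, against 48.5 for other listed genes. The 40 in CD93-negative replicate 1 scored 7.36 to 136 with a median percentile of 59.6, against 51.6 for other listed genes. The 22 in CD93-negative replicate 2 scored 6.55 to 31.0 with a median percentile of 63.7, against 50.6 for other listed genes. These medians cover listed genes only and are not medians of all 49.

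A high score in the longer CD93-negative list did not always carry a gene into the shorter one. Of the 40 mitotic genes in CD93-negative replicate 1, 22 (55.0%) were also in replicate 2, against 39.5% of the 7002 other listed genes. The 22 had a median score of 41.3 in replicate 1, and the 18 that replicate 2 lacked had 22.4; for other genes the medians were 36.7 and 17.9. Cenpf, Cdc25c and Ccnb1, with scores between 43.7 and 49.9 in replicate 1, were missing from replicate 2. Smc2 and Kif20a, with 12.3 and 13.0 in replicate 1, were present in it.

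Where a gene was listed in both fractions, its summits lay close together. Summits of CD93-positive replicate 2 and CD93-negative replicate 1 lay 1 bp apart at Hjurp, 1 bp at Anapc4, 4 bp at Fzr1 and 91 bp at Mad2l1. Between CD93-positive replicate 2 and CD93-negative replicate 2 the gaps were 27 to 58 bp. Between the CD93-negative libraries the 22 shared genes had a median gap of 64.5 bp (6 to 236), against 53.0 bp for other genes. The smallest gap, 6 bp, was at Top2a and the widest, 236 bp, at Ncaph.

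Most of these summits lay at annotated starts. The RefSeq promoter table gave a start for 34 of the 40 mitotic genes in CD93-negative replicate 1, of which 32 (94.1%) had the summit within 250 bp of the start, against 84.2% of other genes. In CD93-negative replicate 2 it was 17 of 19 (89.5%), against 79.2% of other genes, and in CD93-positive replicate 2 it was 3 of 4 (75.0%), against 79.6%. Summits lay mostly just upstream, with medians of -82.5 bp in CD93-positive replicate 2, -64.5 bp in CD93-negative replicate 1 and -79.0 bp in CD93-negative replicate 2. At Fzr1 the summit lay farther upstream, at -255 bp in CD93-positive replicate 2, against -251 and -313 bp in CD93-negative replicates 1 and 2, which is just past the upstream end of the promoter printed above. Kif2c was the exception, with its only summit at -3809 bp from the tabulated start and 43 bp from the gene's annotated upstream limit.

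**Figure D3:**
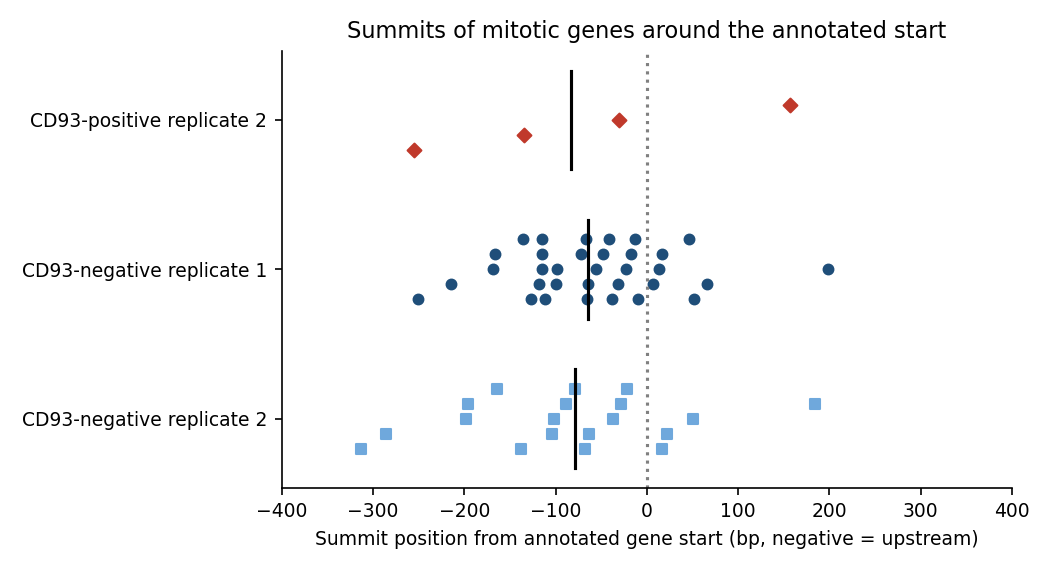
Position of each mitotic gene's summit relative to the annotated gene start (bp, negative upstream) in CD93-positive replicate 2 (4 genes), CD93-negative replicate 1 (34 genes) and CD93-negative replicate 2 (19 genes), with 1 point per gene, spread vertically for visibility, and the median over all of a library's genes as a bar. The medians are -82.5, -64.5 and -79.0 bp, and Kif2c at -3809 bp lies outside the axis.

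The 9 unlisted genes ranged widely in how far they lay from a summit. The outermost summit counted was that of Cdc25b, 558 bp from a gene end, and the nearest one left out was that of Anapc5, 1027 bp from an end in CD93-negative replicate 1 (score 24.9) and 1255 bp in CD93-negative replicate 2 (score 13.2). These Anapc5 summits lay inside the gene, 30 and 258 bp from its tabulated start. The summits nearest Cdc23, 3426 and 3611 bp away in CD93-negative replicates 1 and 2, were those counted for its neighbour Kif20a. Cdc16 had its nearest summits 4048 and 3876 bp away in CD93-negative replicates 1 and 2. For Plk1, Bub1, Bub1b, Ccnb2 and Anapc1 no CD93-negative summit lay closer than 26505 bp.

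Some mitotic genes have an end close to that of a neighbour, about as often as other genes do, and a summit there cannot be assigned to one of them. An end lay within 1000 bp of a neighbouring gene's end for 14 of 49 mitotic genes (28.6%), against 24.8% of other genes. Of these 14, 13 were listed in CD93-negative replicate 1 and 10 in CD93-negative replicate 2; of the other 35, 27 and 12 were. Other genes showed a like split, with 56.4% against 24.1% in CD93-negative replicate 1 and 25.2% against 8.79% in CD93-negative replicate 2. The summit was also counted for another gene at 0 of 4 mitotic genes in CD93-positive replicate 2, 11 of 40 in CD93-negative replicate 1 and 9 of 22 in CD93-negative replicate 2. Examples are Aurka with Cstf1, Prc1 with Rccd1, Ndc80 with Spdya, Anapc11 with Alyref, Smc4 with Ift80 and Ncapd2 with Mrpl51. Giving each summit to its nearest gene end alone removed Ndc80, Aurka and Smc4 from both CD93-negative lists, Cdca8 and Kif20a from replicate 1, and Anapc10 from replicate 2. With Smc4 removed, condensin was no longer complete in either CD93-negative list.

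CHR matches were common in the promoters of most mitotic classes and rare in those of the anaphase-promoting complex. Of 49 genes, 41 matched the promoter table, and both strands of the 300-base windows were searched. A CHR (TTTGAA or TTCGAA) was found in 25 of 41 (61.0%), against 20.1% of 17451 other genes. TTTGAA alone was in 56.1% against 18.4%, and TTCGAA in 9.76% against 2.11%. CCAAT was in 30 of 41 (73.2%), against 42.2% of other genes. The E2F-like TTCCCGCC was in 0 of 41, against 3.29%, and the TATA element TATAAA in 2 (4.88%), against 14.8%. TTCGAA reads the same on both strands, and CHR and CCAAT matches, which can overlap by 1 base at most, were each counted on their own.

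Only 1 of 11 genes of the anaphase-promoting complex and its activators held a CHR (9.09%), and that was Cdc20, the activator used in mitosis. In the other classes 24 of 30 (80.0%) did, among them 6 of 6 spindle and cytokinesis genes, 5 of 6 condensin and chromosome structure genes and 4 of 5 checkpoint genes. CCAAT was in 6 of 11 (54.5%) of the anaphase-promoting class and 24 of 30 (80.0%) of the others. The median number of CpG dinucleotides per window was 32.0 in the anaphase-promoting class and 24.0 in the others. The split follows the classes and was noticed after the values were seen.

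**Figure D4:**
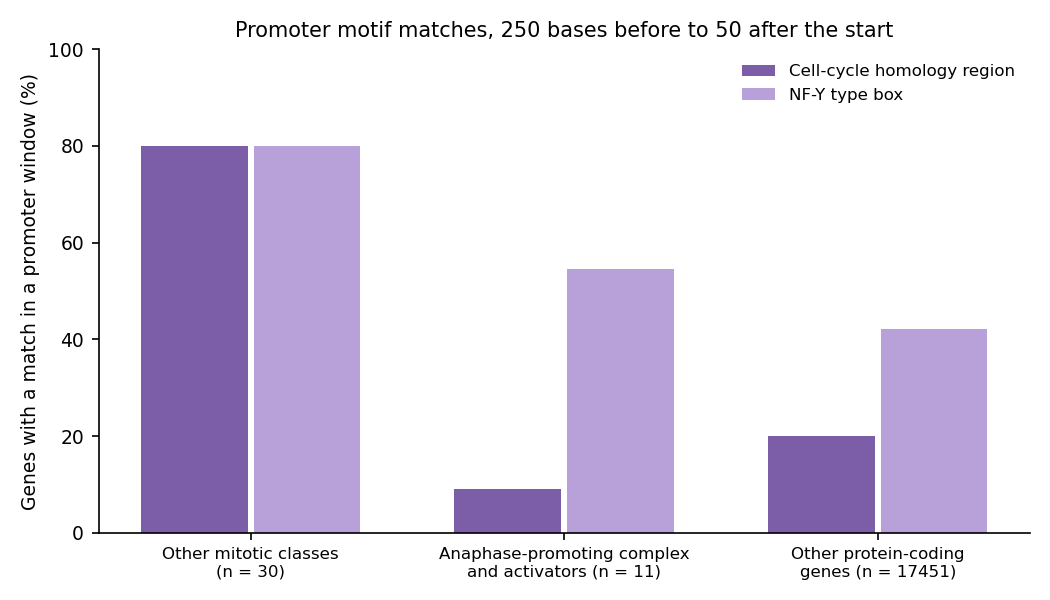
Share of genes (%) with a match to the cell-cycle homology region (CHR) or to the CCAAT box (labelled NF-Y type box) in a 300-base promoter window, for the anaphase-promoting complex and its activators (n = 11), the other mitotic classes (n = 30) and other protein-coding genes (n = 17451). The CHR was at 9.09% in the anaphase-promoting class, 80.0% in the other mitotic classes and 20.1% in other genes.

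A CHR was found in listed and unlisted mitotic genes alike. It was in 57.9% of the 19 genes listed in both CD93-negative libraries, 66.7% of the 15 in replicate 1 and not in replicate 2, and 57.1% of the 7 in no list. CCAAT ran at 73.7%, 73.3% and 71.4% in the same sets. Base composition did differ, with median GC contents of 64.0%, 59.0% and 54.7% and median CpG counts of 27.5, 24.0 and 19.0. Among other genes the median CpG counts were 24, 22 and 6.25. The 7 mitotic genes in no list include Anapc5, which holds CCAAT and no CHR. It had summits 30 and 258 bp from its tabulated start in CD93-negative replicates 1 and 2. These lay more than 1000 bp from a gene end and so were not counted. Plk1 and Ccnb2, printed above, are examples of genes with a CHR in the window and no listed summit. Mad2l1 and Anapc4 are examples of genes listed in 3 libraries with no CHR in the window. The Mad2l1 summits lay past the downstream end of that window, 157 bp from the start in CD93-positive replicate 2. In CD93-negative replicates 1 and 2 they lay 66 and 184 bp from it.

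A wider list of 57 other mitotic genes and regulators followed a like course. It had 0 listed in CD93-positive replicate 1 and 8 (14.0%) in CD93-positive replicate 2, the second beside 3.22% of all genes. CD93-negative replicate 1 had 47 (82.5%), beside 32.2% of all genes, and CD93-negative replicate 2 had 22 (38.6%), beside 12.9% of all genes. The 8 in CD93-positive replicate 2 included Kif22, a chromosome-arm motor, which scored 16.1 there, against 48.0 and 20.7 in CD93-negative replicates 1 and 2. Ube2s, the enzyme that extends ubiquitin chains for the anaphase-promoting complex, scored 12.8 in CD93-positive replicate 2, against 56.4 and 15.7 in the CD93-negative libraries. Wee1, the kinase that holds CDK1 inactive, scored 11.4 in CD93-positive replicate 2, against 54.8 and 18.1 in the CD93-negative libraries. Ncapg2, a condensin II subunit, scored 10.7 in CD93-positive replicate 2, against 69.6 and 8.01 in the CD93-negative libraries. All 4 were thus listed in the same 3 libraries as Hjurp and Fzr1. The other 4 were Ccna2 (cyclin A2, 8.38), Cenpk (6.98), Fbxo5 (an inhibitor of the anaphase-promoting complex, 6.94) and Lin52 (a MuvB subunit, 6.94). Of the condensin II genes in the wider list, Ncapg2 was listed in CD93-positive replicate 2, and Ncapd3 and Ncaph2 were not. None of the condensin genes of the list of 49 was listed there.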

How the data were processed

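ATAC-seq summit lists of 4 libraries were analysed, 1 list per library. Per the submitters' processing notes, the authors used Bowtie2, MACS2 and build mm10. For versions, read filters, any Tn5 shift and the calling threshold, details were not given in the sources used here. Scores were read as the authors' −log10 values, of p or of q, and which of them was not stated. No reads or coverage were used, so depth is unknown and list length stands in for yield. Intervals are exact Clopper-Pearson at 95% and cover counting error only.

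Groups came from the sample titles. The summits' own names carry replicate numbers unlike the titles'; titles were followed, and numbers were not taken to pair libraries. Gene ends came from a RefSeq table of GRCm38.p6, which carries no strand, so starts came from RefSeq promoters. The members and gene lists were chosen with earlier results of these data known. Values per library are given for each gene in a CD93-positive list and, in each class, for up to 3 genes with the highest lower percentile in the CD93-negative lists; all others are given more briefly. A percentile is a rank by score among a list's gene-end summits.

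Alternatives were windows of 500 and 2500 bp, score minimums of 5 and 10, equal list sizes, the nearest end or annotated start only, the summit nearest to an end, leaving out each library, a replicate block and other promoter windows. On simulated data the assignment found 150 of 150 genes with 0 extra and 0 missed. Python 3.11.15, numpy 2.4.6, pandas 2.3.3, scipy 1.17.1 and matplotlib 3.10.9 were used.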

Additional observations from a re-analysis of the deposited data

How the results depend on the processing

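Of 76 alternative values for summary results, 62 kept within their limits and 14 moved, and no difference in shares changed sign. Some of the 62 could not have moved. The replicate block gives the same mean difference by construction. The 0 of CD93-positive replicate 1 cannot rise with fewer summits or a narrower window. With a score of at least 10, CD93-positive replicate 2 listed 1 mitotic gene, beside 0.991% of all genes, and CD93-negative replicate 2 listed 13, beside 6.50% of all genes; 1 gene was in all 3 lists. At 711 summits per list, CD93-negative replicates 1 and 2 listed 5 and 7 mitotic genes, beside 3.28% and 3.38% of all genes. Of the mitotic genes, 0 were in both CD93-negative lists and absent from the CD93-positive ones, and 2 were in all 3. Shares of all genes with these patterns at that length were not counted. The difference in shares was -8.16 points with CD93-positive replicate 1, whose list is shorter. Without that library, an alternative chosen after seeing the data, it was -4.08 points. At 2755 summits CD93-negative replicate 1 listed 20. These alternatives use fewer summits by construction. Leaving out each library in turn, the difference ranged between -77.6 and -40.8 points. The mitotic genes in the remaining CD93-negative lists and in no remaining CD93-positive list numbered between 18 and 36. The 36 came without CD93-negative replicate 2. They are the 18 genes in CD93-negative replicate 1 alone (36.7%) and the 18 in both CD93-negative lists only (36.7%). Of all genes, 19% and 9.95% had these patterns. Without CD93-positive replicate 2 the number was 22. This adds the 4 genes (8.16%) that were in the 3 longer lists only, where 2.77% of all genes were. Without either of the other libraries it stayed at 18. Shares of all genes were not summed for each omission. With a window of 2500 bp the median percentile in CD93-negative replicate 2 was 67.6; the cause was not tested. In the 150 bases before the start the CHR was in 26.8% of mitotic genes, against 10.1% of others. Within 50 bases on either side of the start, a window chosen after seeing the data, CCAAT was in 46.3% against 15.7% and the CHR in 53.7% against 4.96%; both windows are shorter by construction. As a replicate block, taking libraries of one number together, the difference was -59.2 points, with -81.6 for number 1 and -36.7 for number 2; the libraries share only a number.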
